A study of Mus musculus with 20 samples.

Results

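The 9 genes described here encode proteins that bind messenger RNA in activated T cells and set how long it lasts. They are Zfp36, Zfp36l1 and Zfp36l2 (the tristetraprolin family), Rc3h1 and Rc3h2 (Roquin-1 and Roquin-2), Zc3h12a and Zc3h12d (Regnase-1 and Regnase-4), Elavl1 (HuR) and Arid5a. They were chosen by name and found by Ensembl identifier, 9 of the 49315 genes in the deposited count table, and all 9 passed the filter on low counts that left 28082 genes for testing. The libraries came from mouse splenic T effector cells, sorted as CD4+ and CD25- and analysed by RNA sequencing. Control mice (CTL) carried the floxed Pcbp2 gene without Cre, and their CKO littermates carried the same floxed gene with CD4cre, so Cre and the loss of Pcbp2 cannot be told apart. Pcbp2 is itself an RNA-binding protein, and the Cd4 promoter drives Cre from thymic development onward. Cells were frozen unstimulated (0 h, 6 CTL and 6 CKO libraries) or after 6 h with beads that engage CD3 and CD28 (5 CTL and 3 CKO libraries). No library analysed here was kept for 6 h without beads, so stimulation and culture cannot be told apart. No label gives the age of the mice, and the labels do not tie libraries to single animals, so p-values measure the spread between these libraries.

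Proteins of the tristetraprolin family bind AU-rich elements in the 3′ untranslated region (3′ UTR) of cytokine and growth control mRNAs and recruit the enzymes that shorten the poly(A) tail. Roquin proteins read short stem loops with a loop of 3 bases and likewise recruit the deadenylation machinery, while Regnase-1 is an endonuclease that cuts mRNAs at similar stem loops. Regnase-1 and Roquins are cleaved by the protease Malt1 after T cell receptor engagement, HuR competes for AU-rich elements and protects the mRNA, and Arid5a shields stem loops from Regnase-1.

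Several of these regulators carry in their own 3′ UTR the kind of element that they or their partners read, and a few sites are shown so that the letters behind the counts can be read. Sequences are from the GENCODE M21 transcript with the build GRCm38, 5′ to 3′ on the strand of the gene. In the first set, capitals mark the AU-rich heptamer TATTTAT, searched on the transcribed strand only, where copies may overlap and the longer nonamer TTATTTATT may hold it. The Zfp36 site lies at chr7:28376959-28376986 (minus strand), the Elavl1 site at chr8:4285784-4285808 (minus strand) and the site of Tnf, a classical target of tristetraprolin, at chr17:35199675-35199702 (minus strand). The capitals that open the Tnf stretch are the end of a heptamer that begins upstream of it.
Zfp36: cttTATTTATgacgacttTATTTATtgt
Elavl1: aatTATTTATTTATTTATTTATttt
Tnf: TATTATTTATTTATTATTTATTTATttg

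In the second set, capitals mark a stem of at least 5 base pairs and its loop of pyrimidine, purine and pyrimidine. The sites lie at chr4:125119066-125119086 and chr4:125118884-125118904 (Zc3h12a, minus strand), chr1:160971657-160971677 (Rc3h1, plus strand), chr2:37373806-37373826 (Rc3h2, minus strand) and chr7:30428399-30428419 (plus strand, Nfkbid, a known target of Regnase-1 and Roquin).
Zc3h12a, first: gttGATACACATTGTATCtct
Zc3h12a, second: gttAGGCACCATGTGCCTgct
Rc3h1: aatAACTTCTGTGAAGTTgcc
Rc3h2: attAACTTCTGTGAAGTTgtt
Nfkbid: ggtGATTTCTGTGAAATCgag

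The stem loops of Rc3h1 and Rc3h2 are the same in every capital letter. Of 19396 genes with a 3′ UTR of at least 100 bases, 27.8% held a heptamer, 7.6% a nonamer and 21.1% a stem loop of this kind. Zfp36, Zfp36l1 and Zfp36l2 held 3 heptamers each and no stem loop. For Zfp36, whose 3′ UTR has 774 bases, 1.24% of 3′ UTRs of like length held as many heptamers. For Zfp36l1 the share was 4.21% and for Zfp36l2 it was 4.17%. Elavl1 held 8 heptamers in 4218 bases, and 0.301% of 3′ UTRs of like length held as many. Zc3h12a held 3 stem loops and no heptamer in 856 bases, and 0.108% of 3′ UTRs of like length held as many stem loops. Rc3h1 held 2 heptamers and 4 stem loops, of which 2 overlap in a run of alternating T and A, and Rc3h2 held 3 heptamers and 2 stem loops. The Rc3h2 stem loop that is not printed also consists of T and A only. The 3′ UTRs of Rc3h1 (7181 bases) and Rc3h2 (5160 bases) are long, and 5.48% and 26.9% of 3′ UTRs of like length held as many stem loops. For heptamers these shares were 50.1% and 18.7%. Zc3h12d and Arid5a held neither element. A match of letters is a description and not a site shown to act.

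**Figure D1:**
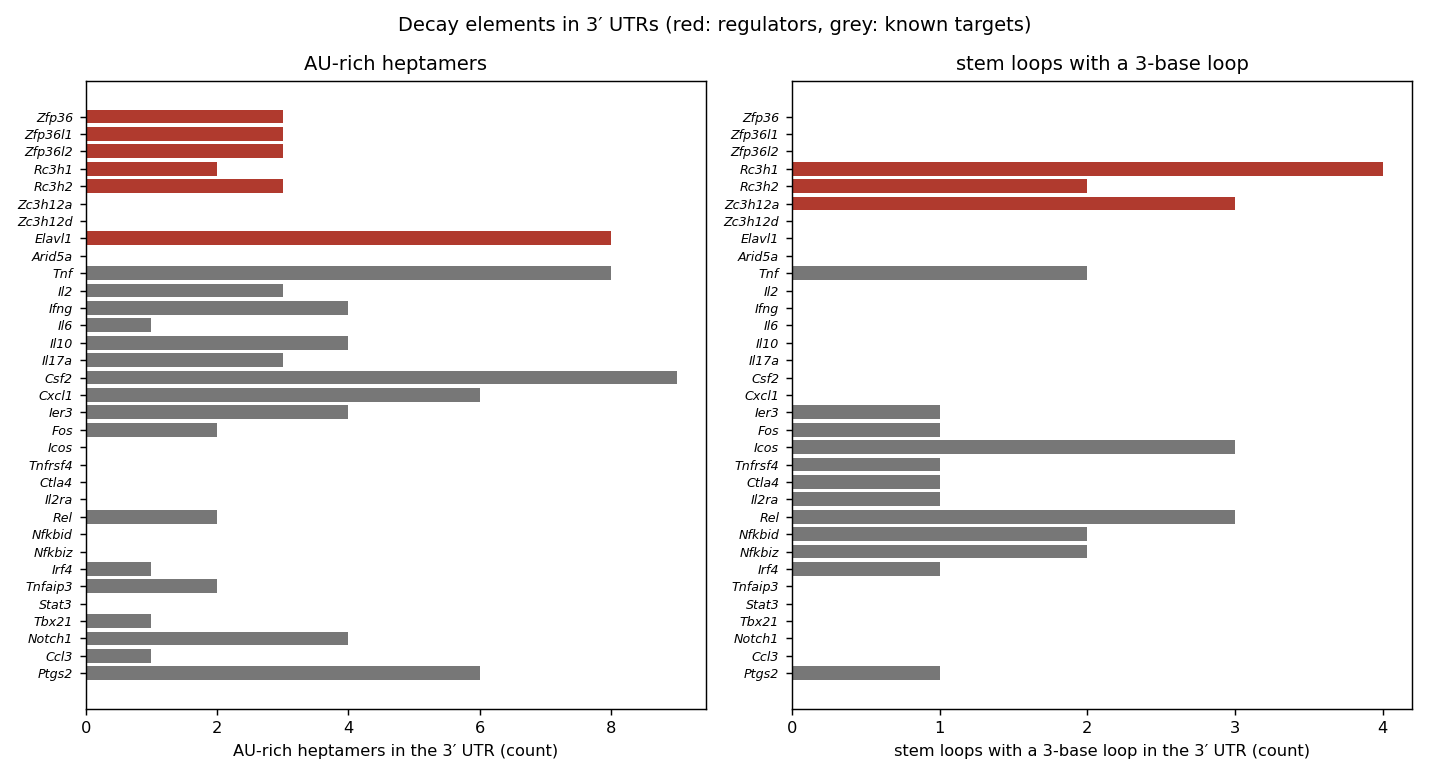
The bars count AU-rich heptamers (left panel) and stem loops with a 3-base loop (right panel) in the 3′ UTR of each regulator (red) and of each known target with an annotated 3′ UTR (grey). Elavl1 reached 8 heptamers, as did Tnf, while Zc3h12a, Rc3h1 and Rc3h2 were the regulators with stem loops.

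Total counts per library ran from 26427467 to 85608113. The 6 h CTL library 4.24 stands apart with the lowest total, and the main values that move without it are given both ways. All 0 h CKO libraries are labelled male, while the 0 h CTL libraries hold both sex labels. The 0 h CKO libraries 4.24 and 5.6 are labelled male but had 1160 and 1350 CPM of Xist, which female cells express. CPM is the customary depth-normalised read count, here with library sizes corrected by the trimmed mean of M-values (TMM). The 6 h CTL library 4.24 also had the highest TMM factor, 1.37, against 0.861 to 1.1 in the others. It is labelled female and had 195 CPM of Xist, against 742 to 1550 CPM in the other libraries labelled female. Pcbp2 was at 333 ± 46.9 CPM (SD, n = 6) in CTL and 17 ± 3.39 CPM (n = 6) in CKO at 0 h. At 6 h it was at 322 ± 34.5 CPM (n = 5) and 8.72 ± 2.24 CPM (n = 3), with no overlap between genotypes at either time (log2 fold changes of -4.30 ± 0.17 and -5.21 ± 0.23, SE). The summed level of 10 T cell markers was 4883 to 6945 CPM at 0 h and 2787 to 3728 CPM at 6 h. The summed level of 10 B cell markers was 52.6 to 411 CPM at 0 h and 20.9 to 103 CPM at 6 h, and that of 13 myeloid markers was 187 to 309 CPM and 119 to 191 CPM, with no B cell or myeloid marker at 0 in a whole group. The part of these cells in the changes between 0 h and 6 h was not tested, and in bulk RNA fewer cells of a type and less RNA per cell cannot be told apart.

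After 6 h with beads the 9 regulators moved in different directions. Zc3h12a, Zc3h12d and Arid5a rose in both genotypes, and Zfp36l2 fell in CTL by 0.89 on the log2 scale. In CTL 6 of the 9 were called (edgeR quasi-likelihood test, Benjamini-Hochberg adjusted p under 0.05 over all 28082 genes). The 3 called higher were Zc3h12a, Zc3h12d and Arid5a, and the 3 called lower were Zfp36, Zfp36l2 and Rc3h2. Over all tested genes 63.4% were called in CTL, 41.6% higher and 21.7% lower, so the share of regulators called was close to the background. The libraries of 0 h and 6 h did not overlap for 3 of the 9 in CTL and 5 of the 9 in CKO, where 30.6% and 41.9% of the 14189 genes with a mean of at least 1 CPM did not. In CKO 3 of the 9 were called, all higher, against a background of 32.8% of all tested genes, 19.6% higher and 13.1% lower. In the fits a log2 fold change of 0 is set by TMM, and genes with a mean of at least 1 CPM had a median log2 fold change of -0.20 in CTL and -0.12 in CKO. Restricting the fit to genes with a mean of at least 1 CPM, which changes the scaling and also the set tested (14446 genes), moved that median to 0.01 in CTL and -0.02 in CKO, and the calls and signs of the small changes below depend on that choice.

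**Figure D2:**
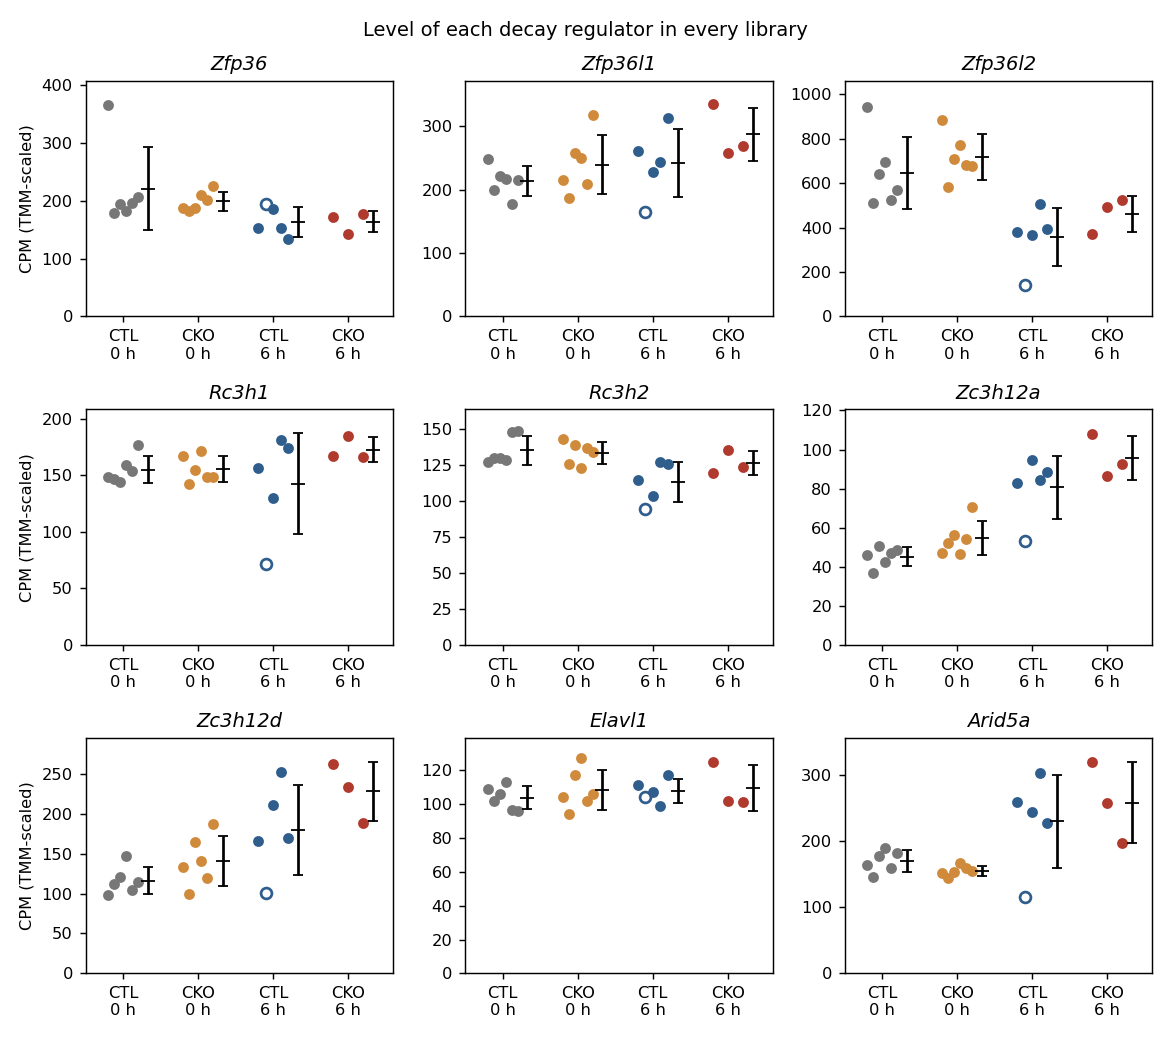
Each panel gives the CPM of 1 regulator (axis from 0) in every library, with the group mean and SD as a bar beside the points and the 6 h CTL library 4.24 as an open circle. Zc3h12a is higher and Zfp36l2 lower at 6 h without overlap in either genotype, and the open circle is the lowest 6 h CTL point for 7 of the 9 genes.

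Zfp36l2, which restrains cytokine mRNAs in resting T cells, lies at chr17:84183931-84187947 (GRCm38, minus strand). Its level at 0 h ran from 509 to 942 CPM (median 606) in CTL and from 585 to 886 CPM (median 695) in CKO. After 6 h the CTL libraries read 366, 144, 506, 394 and 379 CPM (4.29, 4.24, 5.13, 9.20 and 10.28), and the CKO libraries 492, 526 and 372 CPM (5.13, 5.6 and 11.18). Every 6 h library lay below every 0 h library of its genotype, and the lowest was the CTL library 4.24. In CTL the log2 fold change was -0.89 ± 0.23 (SE), with an adjusted p of 0.0026. It was called under all 32 alternatives, with values from -1.03 to -0.48 and adjusted p from 0.000417 to 0.0139, and stood at -0.63 ± 0.17 without the 6 h CTL library 4.24. In CKO the log2 fold change was -0.57 ± 0.28 (adjusted p = 0.123), which does not pass the test. With the library number as a replicate block it was -0.70 ± 0.26 (adjusted p = 0.0402) and passed, as it did without the 6 h CTL library 4.24, at -0.65 ± 0.19 (adjusted p = 0.00988). Over its 32 alternatives the adjusted p lay between 0.00401 and 0.455, and 6 passed.

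Zfp36, tristetraprolin itself, lies at chr7:28376784-28380253 (minus strand). At 0 h it ran from 179 to 365 CPM (median 195) in CTL and from 183 to 225 CPM (median 195) in CKO. After 6 h the CTL libraries read 186, 194, 153, 133 and 152 CPM, in the order of numbers above, and the CKO libraries 143, 177 and 171 CPM. Both genotypes lay lower at 6 h, without overlap in CKO and with overlap in CTL, where the 0 h library 10.28 stood far above the rest at 365 CPM. The fall in CTL was -0.40 ± 0.15 (adjusted p = 0.0273), and in CKO the value was -0.36 ± 0.18 (adjusted p = 0.133). The call in CTL was lost in 9 of 32 alternatives, with adjusted p from 0.00723 to 0.374. Among them were leaving out the 0 h CTL library 10.28 (-0.23 ± 0.11, adjusted p = 0.0732) and the fit restricted to genes with a mean of at least 1 CPM (-0.16 ± 0.15, adjusted p = 0.374).

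Zfp36l1, the third family member, lies at chr12:80107754-80113013 (minus strand). It ran from 178 to 248 CPM (median 216) in CTL and from 186 to 318 CPM (median 232) in CKO at 0 h. The CTL libraries at 6 h read 228, 164, 244, 313 and 260 CPM and the CKO libraries 257, 269 and 335 CPM, which overlaps with 0 h in both genotypes. The log2 fold changes were 0.16 ± 0.15 (adjusted p = 0.362) in CTL and 0.32 ± 0.18 (adjusted p = 0.176) in CKO. The fit restricted to genes with a mean of at least 1 CPM, with other scaling and fewer genes tested, called it higher in both, at 0.37 ± 0.13 (adjusted p = 0.0241) and 0.42 ± 0.15 (adjusted p = 0.0411). Adjusted p over the alternatives lay between 0.00644 and 0.806 in CTL and between 0.0148 and 0.617 in CKO. On the opposite strand the lincRNA Gm26669, at 4.12 to 6.01 CPM by group, shares 1672 exon bases with it, and although the library kit was stranded, no source used here gives the strand setting of the counting.

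The makeup of the family at 0 h and 6 h follows from these values. Of the summed CPM of the 3 genes, Zfp36l2 made up 59.7% ± 2.39 (SD, n = 6) in CTL at 0 h and 45.3% ± 10 (n = 5) at 6 h, or 49.5% ± 4.41 (n = 4) without the library 4.24. In CKO its share was 62% ± 4.21 (n = 6) and 50.5% ± 7.07 (n = 3). Zfp36l1 made up 20.1% ± 2.31 at 0 h and 31.8% ± 3.94 at 6 h in CTL (31.6% ± 4.51 without 4.24), and 20.7% ± 3.21 and 31.6% ± 5.75 in CKO. For Zfp36l1 the share at 6 h lay above that at 0 h in every library of its genotype (16 to 22.5% against 27 to 37.3% in CTL, 16.7 to 26% against 27.7 to 38.2% in CKO). These shares do not depend on how libraries are scaled, and they were not tested.

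Rc3h1, needed with Rc3h2 to hold back Icos and Tnfrsf4, lies at chr1:160906418-160974978 (plus strand). It ran from 144 to 177 CPM (median 151) in CTL and from 142 to 171 CPM (median 152) in CKO at 0 h. Libraries of CTL at 6 h read 130, 71.4, 181, 174 and 156 CPM and the CKO libraries 185, 166 and 167 CPM. The groups overlapped in both genotypes, and the library 4.24 was far below the others. The log2 fold changes were -0.16 ± 0.15 (adjusted p = 0.368) in CTL and 0.24 ± 0.18 (adjusted p = 0.326) in CKO. The sign in CTL was not stable: it was 0.04 ± 0.09 (adjusted p = 0.707) without the library 4.24, in a range of adjusted p from 0.0299 to 0.809.

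Rc3h2 lies at chr2:37370069-37422903 (minus strand). It ran from 127 to 149 CPM (median 130) in CTL and from 123 to 143 CPM (median 136) in CKO at 0 h. At 6 h the CTL libraries read 104, 94.7, 127, 126 and 115 CPM and the CKO libraries 136, 124 and 120 CPM. In CTL the groups did not overlap by the unrounded values, and in CKO they did. The fall in CTL was -0.27 ± 0.09 (adjusted p = 0.012), and the value in CKO was -0.05 ± 0.10 (adjusted p = 0.728). The call in CTL was lost in 4 of 32 alternatives, all of which change the scaling, 3 of them together with the genes tested or the libraries. It was -0.19 ± 0.08 (adjusted p = 0.0605) with relative log expression factors and -0.05 ± 0.07 (adjusted p = 0.556) on genes with a mean of at least 1 CPM, in a range from 0.00742 to 0.801.

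Zc3h12a, the endonuclease Regnase-1, lies at chr4:125118423-125127840 (minus strand). It ran from 36.6 to 50.8 CPM (median 46.3) in CTL and from 46.7 to 70.4 CPM (median 53.3) in CKO at 0 h. With beads, the 6 h CTL libraries read 94.8, 53.2, 84.3, 88.5 and 82.8 CPM and the CKO libraries 86.6, 92.5 and 108 CPM. Every 6 h library lay above every 0 h library of its genotype, and the CTL library 4.24 was the nearest to 0 h. The rise was 0.81 ± 0.13 (adjusted p = 3.37e-05) in CTL, 1.75-fold, and 0.88 ± 0.15 (adjusted p = 0.000248) in CKO, 1.84-fold. It was called under all 32 alternatives in each genotype, between 0.71 and 1.12 in CTL and between 0.79 and 0.99 in CKO. Of 14189 genes with a mean of at least 1 CPM, 10.2% had a higher log2 fold change in CTL and 6.62% in CKO.

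Zc3h12d, a relative of Regnase-1 found mainly in lymphoid cells, lies at chr10:7832470-7870396 (plus strand). It ran from 98.2 to 147 CPM (median 113) in CTL and from 99 to 187 CPM (median 137) in CKO at 0 h. The 6 h CTL libraries read 211, 101, 252, 170 and 166 CPM and the CKO libraries 233, 189 and 262 CPM. In CKO the groups did not overlap, and in CTL 4 of 5 libraries lay above the highest 0 h library while 4.24 lay within the range of 0 h. The rise was 0.56 ± 0.16 (adjusted p = 0.00443) in CTL and 0.83 ± 0.18 (adjusted p = 0.00257) in CKO. It was called under all 32 alternatives in each genotype, and without the library 4.24 the CTL value was 0.71 ± 0.14 (adjusted p = 0.000468, in a range from 4.72e-06 to 0.0356).

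Arid5a, which shields target stem loops from Regnase-1, lies at chr1:36307733-36324029 (plus strand). It ran from 146 to 190 CPM (median 171) in CTL and from 145 to 168 CPM (median 155) in CKO at 0 h. The CTL libraries at 6 h read 244, 116, 304, 228 and 260 CPM and the CKO libraries 259, 197 and 320 CPM. In CKO the groups did not overlap, and in CTL the library 4.24 lay below every 0 h library while the other 4 lay above all of them. The rise was 0.39 ± 0.14 (adjusted p = 0.0256) in CTL and 0.84 ± 0.17 (adjusted p = 0.00119) in CKO. In CKO it was called under all 32 alternatives (0.60 to 0.95). In CTL the call was lost in 11 of 32, with adjusted p from 2.65e-06 to 0.195, and the highest was that without the 6 h CTL library 10.28 (0.21 ± 0.14). Without the library 4.24 the CTL value was 0.57 ± 0.10 (adjusted p = 9.33e-05).

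Elavl1, the stabilising protein HuR, lies at chr8:4285382-4325413 (minus strand). It ran from 95.8 to 113 CPM (median 104) in CTL and from 94.2 to 127 CPM (median 105) in CKO at 0 h. At 6 h the CTL libraries read 107, 104, 98.9, 117 and 111 CPM and the CKO libraries 102, 101 and 125 CPM. The groups overlapped in both genotypes, and no library stood apart. The log2 fold changes were 0.05 ± 0.09 (adjusted p = 0.659, 95% interval -0.14 to 0.23) in CTL and 0.03 ± 0.11 (adjusted p = 0.868, -0.20 to 0.25) in CKO. Of 32 alternatives in CTL it was called only in those restricted to genes with a mean of at least 1 CPM, alone (0.27 ± 0.09, adjusted p = 0.0135) or with other changes, in a range from 0.0135 to 0.96. Ccl25, at 10.6 to 14.9 CPM by group, shares 204 exon bases with it on the opposite strand.

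**Figure D3:**
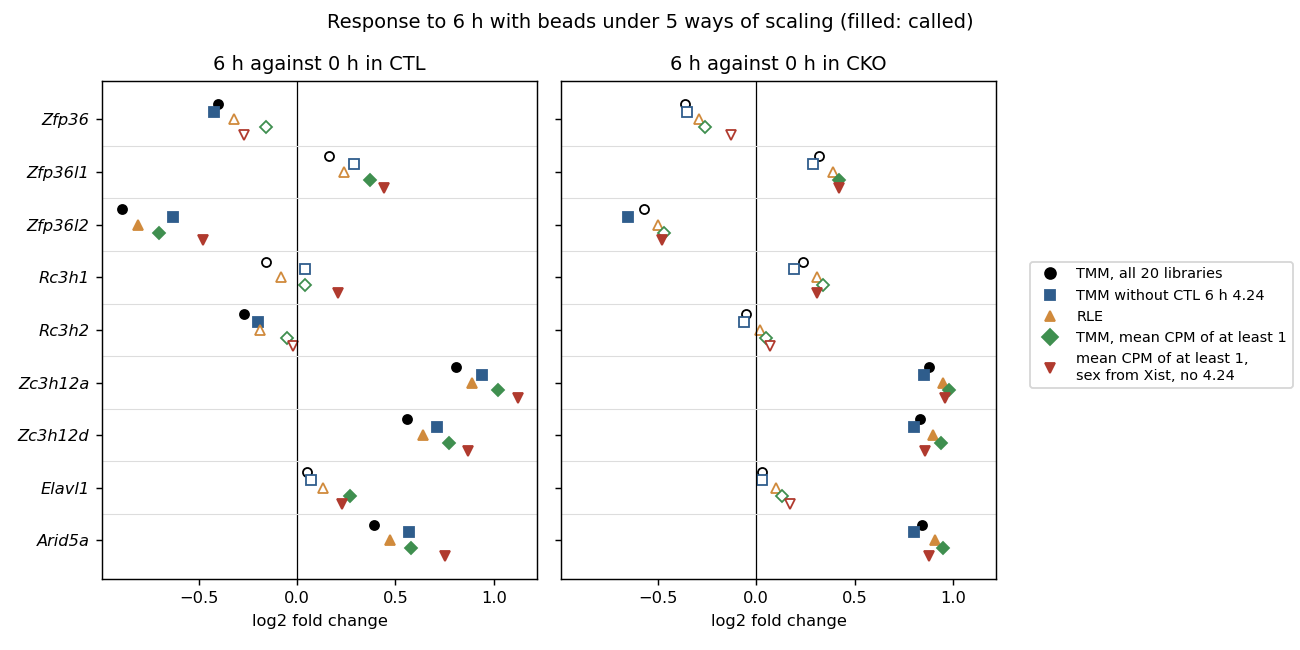
Log2 fold change of each regulator at 6 h against 0 h in CTL (left) and CKO (right) under 5 ways of scaling or selecting genes and libraries, where filled symbols are called at an adjusted p under 0.05. Zc3h12a and Zc3h12d stay filled and right of 0 in both panels and Zfp36l2 stays filled and left of 0 in CTL. Zfp36, Zfp36l1, Rc3h1, Rc3h2 and Elavl1 change their call or sign in CTL.

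Per kilobase of exon sequence, Zfp36l2 had the highest level of the 9 in every group, at 183 ± 45.6 CPM per kb in CTL at 0 h and 101 ± 37.3 at 6 h. Zfp36l1 followed at 71.3 ± 7.8 and 80.9 ± 18.1, and Zfp36 stood at 63.6 ± 20.6 and 47.2 ± 7.4, so these neighbours do not differ beyond their spread at 0 h. Zc3h12d was at 28.4 ± 4.21 and 44 ± 13.7 CPM per kb, and Zc3h12a at 15.7 ± 1.74 and 28 ± 5.58. Rc3h1, Rc3h2, Elavl1 and Arid5a had 13.7, 6.91, 10 and 13.6 CPM per kb at 0 h in CTL. The order below Zfp36l2 depends on the gene model. With the length of 1 transcript, in CTL at 0 h, Zfp36 came to 79.1 ± 25.7 CPM per kb, above Zfp36l1 at 71.3 ± 7.8. Arid5a came to 36.6 ± 3.52, above Zc3h12d, and Elavl1 to 18.1 ± 1.19, above Zc3h12a at 16.4 ± 1.82.

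Between genotypes no regulator was called at either time. At 0 h 0 of 9 passed, where 0.424% of all tested genes were called, and at 6 h 0 of 9 passed, where 0.292% were. None of the 9 had an unadjusted p under 0.05 in either comparison, and DESeq2 called none. The value nearest to the threshold at 0 h was that of Arid5a, 170 ± 16.3 CPM in CTL and 155 ± 7.69 CPM in CKO, with a log2 fold change of -0.31 ± 0.15 (edgeR adjusted p = 0.674, 95% interval -0.63 to 0.01). That fold change is adjusted for the sex label, and over the 32 alternatives it lay between -0.39 and -0.13. The ranges of Arid5a overlapped, every one of the 6 CKO libraries lay under the CTL mean, and CKO was lower in 5 of 5 same-numbered pairs. Zc3h12a was higher in CKO in 5 of 5 pairs (log2 ratios of 0.14 to 0.54), with 6 of 6 CKO libraries above the CTL mean and 4 above its highest library, and Zfp36l2 in 5 of 5 pairs (0.14 to 0.38). Neither passed the test, with or without the replicate block. At 6 h the values of all 9 were positive, from 0.02 ± 0.18 for Zfp36 and 0.02 ± 0.11 for Elavl1 to 0.39 ± 0.27 for Zfp36l2, with adjusted p of 0.415 or more, where the median over genes with a mean of at least 1 CPM was 0.07. Without the CTL library 4.24 the value of Zfp36l2 was 0.16 ± 0.19, that of Rc3h1 moved from 0.28 ± 0.18 to 0.11 ± 0.10 and that of Arid5a from 0.14 ± 0.17 to -0.01 ± 0.11. Over the 32 alternatives Arid5a, Zfp36 and Elavl1 reached values as low as -0.05, -0.09 and -0.08. The CKO and CTL ranges overlapped for each of the 9 genes at each time, and 3.26% of the 14189 genes at 0 h and 8.98% at 6 h had ranges that did not. The 95% intervals at 0 h were narrowest for Rc3h2 (-0.25 to 0.13) and Elavl1 (-0.16 to 0.24) and widest for Zfp36l2 (-0.43 to 0.57), and at 6 h that of Zfp36l2 reached from -0.17 to 0.95.

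**Figure D4:**
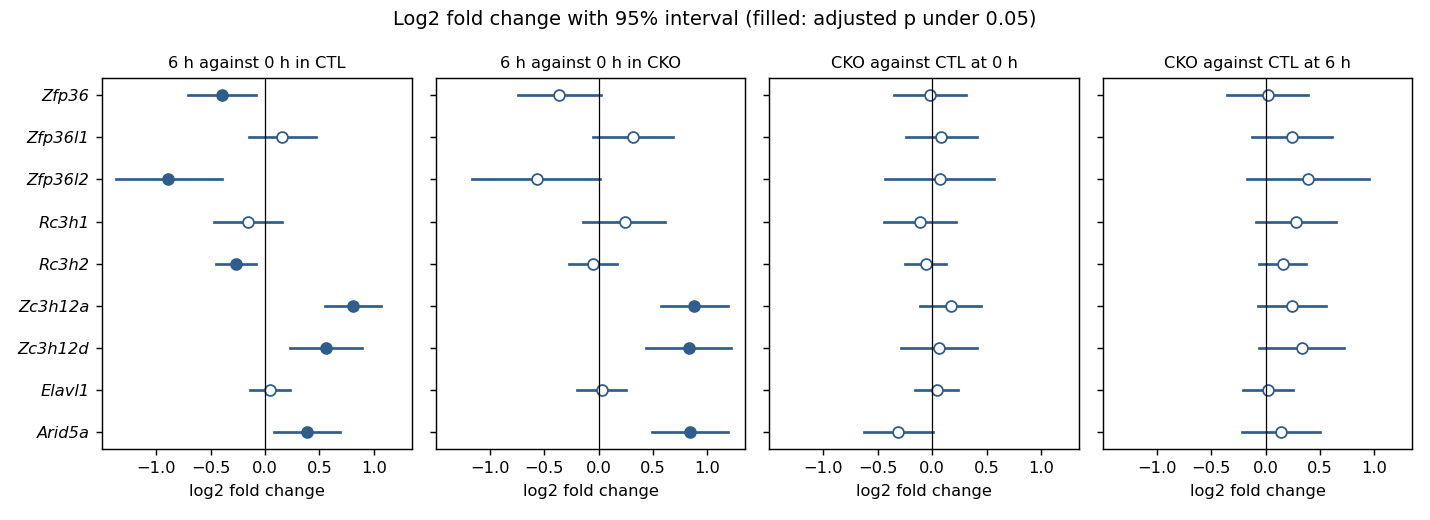
Log2 fold change (x axis) of each regulator with its 95% interval in the responses of CTL and CKO and in CKO against CTL at 0 h and 6 h, where filled points have an adjusted p under 0.05. Filled points appear only in the responses, 6 in CTL and 3 in CKO, and every interval of the genotype comparisons crosses 0.

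Whether the response differed between genotypes was tested by the interaction term, which called 0 of the 9 regulators and 0% of all tested genes, of which 2725 had an unadjusted p under 0.05. DESeq2 called 10 genes, none of them a regulator. The interaction of Arid5a was 0.45 ± 0.23 (edgeR adjusted p = 0.465), that of Rc3h1 0.39 ± 0.24 and that of Zfp36l2 0.31 ± 0.37. Without the 6 h CTL library 4.24 they were 0.24 ± 0.15, 0.15 ± 0.14 and -0.02 ± 0.26, each with an adjusted p of 1, and over the 31 alternatives the adjusted p of Arid5a lay between 0.253 and 1. A response called in 1 genotype and not in the other, as for Zfp36, Zfp36l2 and Rc3h2, is therefore not shown to differ between them.

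In the main fit, which uses the sex label, several lists of other cells' markers leaned toward CKO. At 0 h the values of CKO against CTL were positive for 10 of 10 B cell markers (median log2 fold change 0.78). They were positive for 12 of 13 myeloid (0.71), 8 of 8 dendritic cell (0.67) and 7 of 7 stromal and endothelial markers (0.66). Regulatory T cell markers were positive for 8 of 8 (0.52) and CD8 T cell markers for 2 of 2 (0.56). NK cell markers were positive for 4 of 6 (0.16) and red cell and platelet markers for 0 of 5 (-0.55). The median over all tested genes was 0.05. Summed over the list, B cell markers at 0 h had means of 132 CPM in CTL and 118 CPM in CKO, with medians of 74.3 and 101 CPM. CD8 T cell markers had means of 40.8 and 40.1 CPM, with medians of 27 and 41.1 CPM. A combined setting used genes averaging at least 1 CPM, sex read from Xist and no 6 h CTL library 4.24. Its medians at 0 h were 0.04 for B cell, 0.38 for myeloid, 0.36 for dendritic and 0.52 for regulatory T cell markers. At 6 h the B cell median was 0.77 in the main fit and 0.97 in the combined setting. That of stromal and endothelial markers was -0.93 and -0.24. With all libraries and tested genes, edgeR called markers of regulatory T cells only, and the 2 named here were chosen after their values were seen. Foxp3 was at 49.1 ± 11.5 CPM in CTL and 120 ± 23.5 CPM in CKO at 6 h (1.29 ± 0.27, edgeR adjusted p = 0.0488), a call lost without the CTL library 4.24 (1.26 ± 0.31, adjusted p = 0.106). Gpr83 was higher in CKO at 0 h (1.18 ± 0.23, adjusted p = 0.0227) and at 6 h (1.35 ± 0.26, adjusted p = 0.0244), where the call was lost in the fit restricted to genes with a mean of at least 1 CPM (1.24 ± 0.29, adjusted p = 0.0508). The summed level of the 8 regulatory T cell markers was 282 to 496 CPM in CTL and 351 to 1017 CPM in CKO at 0 h, and 588 to 745 CPM and 755 to 1021 CPM at 6 h. The part of these cells in the genotype values of the 9 regulators was not tested.

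Most of the 25 mRNAs listed here as known targets of these proteins were called higher after 6 h. The list was chosen with earlier results of these data known and does not stand for all their targets. Of 25 known targets, 21 were called higher and 0 lower in CTL, with a median log2 fold change of 2.11 against 0.31 over all tested genes. The share of all tested genes called higher was 41.6% in CTL and 19.6% in CKO. Fos, Ptgs2, Tbx21 and Notch1 were not called. Some of the genes called were at low levels, such as Cxcl1 at 1.12 ± 1.62 CPM and Il6 at 0.731 ± 1.04 CPM (SD, n = 5) in CTL at 6 h. In CKO 18 were called higher and 0 lower, with a median of 1.76 against 0.12, and Icos and Ctla4 were among the 7 not called. Il2, the T cell growth factor, was at 1.89 ± 0.485 CPM at 0 h and 106 ± 56.5 CPM at 6 h in CTL (5.82 ± 0.41, edgeR adjusted p = 2.1e-09), and at 1.72 ± 0.291 and 95.3 ± 77.2 CPM in CKO (5.75 ± 0.42, adjusted p = 1.16e-08). Irf4, a transcription factor of activated lymphocytes, rose from 38.9 ± 6.96 to 700 ± 250 CPM in CTL. Nfkbid, whose stem loop is printed above, rose by 2.43 ± 0.20 in CTL and 2.09 ± 0.22 in CKO. Tnfaip3, an inhibitor of NF-κB signalling, rose by 2.14 ± 0.19 and 2.09 ± 0.21. Of the 25 targets edgeR called 0 between genotypes at either time. Stat3, the target with the largest mean CPM over the 20 libraries, had genotype values of -0.01 ± 0.16 at 0 h and 0.33 ± 0.18 at 6 h.

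The genes that act upstream of the regulators split in direction. Of 15, 4 were called higher and 8 lower in CTL, and 4 and 5 in CKO. The shares over all tested genes were 41.6% higher and 21.7% lower in CTL, and 19.6% and 13.1% in CKO. Map2k3, a kinase that activates p38, rose from 39.1 ± 4.6 to 166 ± 82.7 CPM in CTL (2.07 ± 0.26, edgeR adjusted p = 3.88e-06) and by 1.62 ± 0.29 in CKO. Ikbkb and Mapk14, a kinase of NF-κB signalling and p38α, changed by -1.25 ± 0.14 and -1.14 ± 0.15 in CTL.

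Of the machinery that the regulators recruit, more genes were called lower than higher in CTL, but the counts moved in the fit restricted to genes with a mean of at least 1 CPM and without the library 4.24. Over all tested genes 41.6% were called higher and 21.7% lower in CTL, and 19.6% and 13.1% in CKO. In CTL the restricted fit called 4014 genes higher and 3639 lower of 14446. Without 4.24 the counts in CTL were 9520 and 6041 of 26737. In the main fit genes with a mean of at least 1 CPM had a median log2 fold change of -0.20 in CTL, and 55.9% of them were called. Among 19 deadenylation genes 1 was higher and 9 lower, 4 and 6 in the restricted fit, and 2 and 7 without 4.24. Cnot6l, a deadenylase of the CCR4-NOT complex, had a log2 fold change of -0.64 ± 0.11 and Pan3, of the other deadenylase, -0.58 ± 0.11. Among 17 genes of decapping and 5′ decay 2 were higher and 7 lower (5 and 3 in the restricted fit, 1 and 4 without 4.24), with Dcp1b at -0.68 ± 0.10 and the helicase Ddx6 at -0.65 ± 0.16. Of 15 tested exosome genes 2 were higher and 5 lower (6 and 3, 3 and 4), and of 10 genes of nonsense-mediated decay 0 and 5 (2 and 4, 1 and 5), with Smg9 at -0.73 ± 0.10. Among 16 other proteins that bind AU-rich or related elements 3 were higher and 7 lower (6 and 3, 4 and 4), led by Tial1 at -0.67 ± 0.11. In CKO, with 3 libraries at 6 h, 1 deadenylation gene was higher and 0 lower, against 2 and 7 without the CTL library 4.24, which enters the shared estimate of spread. Decapping genes were 0 higher and 3 lower, exosome genes 0 and 3, nonsense-mediated decay genes 1 and 2, and AU-rich binders 1 and 1. The deadenylation gene was Tob1, an adaptor of CCR4-NOT (0.73 ± 0.16, edgeR adjusted p = 0.0024), and Zc3hav1, the zinc finger antiviral protein, rose by 0.74 ± 0.18 (adjusted p = 0.00526). Of 7 relatives of the regulators 4 were called higher in CTL and 2 in CKO, with 0 lower in either. The neuronal HuR relatives Elavl2, Elavl3 and Elavl4 were called from CTL means of 0.219, 0.309 and 0.143 CPM at 0 h and 3.18, 4.99 and 3.25 CPM at 6 h, and the library 4.24 held 11.5, 16 and 12 CPM of them. Without it the 6 h means were 1.09, 2.24 and 1.07 CPM, and all 3 were still called (3.38 ± 1.01, 3.22 ± 0.45 and 3.68 ± 0.97). The levels are low, and the highest 0 h CTL values were 1.09, 0.799 and 0.606 CPM. Genes with a count numbered 25722 to 41455 per library at 0 h and 35141 to 41192 at 6 h. The part of this difference in the 3 calls was not tested. Arid5b, a relative of Arid5a, rose in CTL from 47.5 ± 4.13 to 90.4 ± 36.3 CPM (0.86 ± 0.23, adjusted p = 0.00372) and by 1.12 ± 0.27 in CKO. With all libraries and tested genes, edgeR called none of these genes between genotypes at 0 h or 6 h. Cpeb4, a binder of related U-rich elements named after its values were seen, was called higher in CKO at 6 h without the library 4.24 (0.55 ± 0.09, adjusted p = 0.00508) and in the restricted fit (0.63 ± 0.13, adjusted p = 0.0271). With the restricted fit, sex read from Xist and 4.24 left out together, Smg1 and Patl1 were among the genes called lower at 0 h (-0.40 ± 0.11 and -0.19 ± 0.04).

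**Figure D5:**
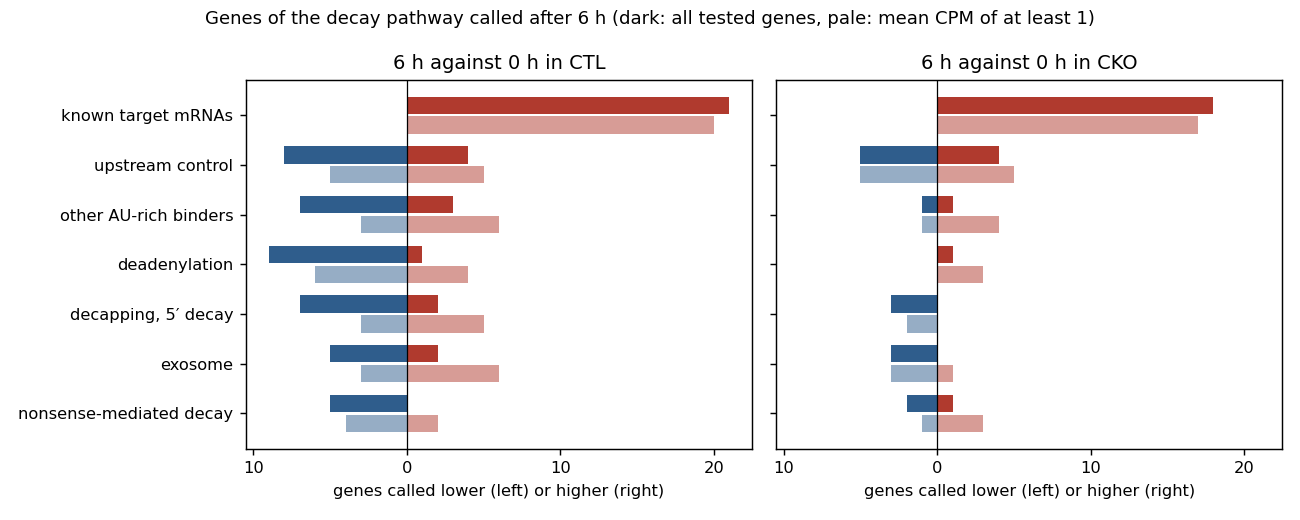
Bars to the right count genes called higher and bars to the left genes called lower at 6 h against 0 h in CTL and CKO, for each list of genes around the 9 regulators, with all tested genes in the fit (dark) or only genes with a mean of at least 1 CPM (pale). Known targets reach 21 called higher in CTL with 0 lower, while the split of the decay machinery moves between the dark and pale bars.

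The genes whose log2 CPM profile over the 20 libraries was most like that of a regulator were found by the root-mean-square difference after centring each gene, among 11600 protein-coding genes with a mean of at least 1 CPM. For Zc3h12a they were Mvp (0.163) and Tuft1 (0.173), and for Zc3h12d Stat3 (0.117), itself a target of these proteins, and Ppp1r16a (0.140). Zfp36l2 was nearest to Atp8b2 (0.174) and Prr12 (0.179), Zfp36 to Mybl2 (0.189) and Rnf113a2 (0.206), and Zfp36l1 to Camsap1 (0.120) and Josd1 (0.135). Arid5a was nearest to Cyp2s1 (0.125) and Rbl1 (0.165). The flatter profiles had closer neighbours: Rc3h1 with Edrf1 (0.079) and Ino80d (0.083), Rc3h2 with Wdr20 and Clock (0.072 each), and Elavl1 with Snrpc (0.071) and Rwdd4a (0.073).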

How the data were processed

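RNA sequencing counts of 20 libraries were analysed. The authors deposited unnormalized read counts, whole numbers for each Ensembl gene, in a single table. GRCm38 is the build in the submitters' processing notes, which also list featureCounts, Subread 1.5.2, Trimmomatic 0.36 and STAR 2.5.2b with no role or order. Neither the annotation release nor the strand setting is given in the sources used here. Of 49315 gene IDs, 49056 matched GENCODE M21 and 259 did not. Columns of other samples numbered 0. The test was that of edgeR 4.0.16 (R 4.3.3) on the counts: filterByExpr (minimum count 10, minimum total 15), TMM factors and a robust quasi-likelihood fit with the 4 groups and the sex label, over all 20 libraries. A gene is called at a Benjamini-Hochberg adjusted p under 0.05 over 28082 genes, and each adjusted p comes from it where no other tool is stated. Values after ± are SE for log2 fold changes and SD for levels. The precision of a level rests on the spread between libraries. The fit was also run on simulated counts in which few genes changed, so that run does not speak to the scaling of these data. No library was a copy of another in its group (chi-square per degree of freedom 18.7 to 271 over 43 pairs within groups). Pairs across groups were not compared in this way.

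Library numbers in the titles were checked for pairing on residuals from group means. Same-numbered libraries correlated at 0.304 to 0.628 (CTL and CKO at 0 h, 5 pairs), 0.319 to 0.502 (CTL at 0 h and 6 h, 5 pairs), 0.176 to 0.493 (CKO at 0 h and 6 h, 3 pairs) and 0.562 (1 pair at 6 h). Differently numbered libraries, in the same order, had medians of -0.11, -0.0884, -0.0857 and -0.0283 and highest values of 0.593, 0.383, 0.259 and 0.356. Same-numbered libraries were thus more alike in the median, and the ranges overlapped in all but the last comparison. The labels do not say what a number marks.

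The text names all 9 regulators, Pcbp2, up to 4 called genes with the smallest adjusted p of each list (or up to 2 of the most abundant), and the 2 genes most like each regulator. The values of some genes that this rule names are not reported here. The regulators and lists were chosen with earlier results of these data known. Alternatives were relative log expression (RLE) factors, no filter, a mean CPM of at least 1, DESeq2 1.42.0, no sex term, sex read from Xist, a replicate block, only the groups compared, leaving out the libraries whose sex label disagrees with Xist, leaving out each library, and 3 combinations added after seeing the data.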

Additional observations from a re-analysis of the deposited data

Results flagged for a closer look

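In the group of 6 CTL libraries at 0 h, Zfp36 was at 365 CPM in library 10.28, while the others lay between 179 and 206 CPM. In the group of 5 CTL libraries at 6 h, Zc3h12a was at 53.2 CPM in library 4.24, while the others lay between 82.8 and 94.8 CPM. The total count of the same library was 26.4 M, against 62.4 to 69.4 M in the others. Each stood far from the rest of its group by Dixon's test for 1 outlying value, and 3 of 30 such tests did so, where chance gives about 1 in 20.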

How the results depend on the processing

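Over 31 or 32 alternatives for each regulator and comparison, 1390 values stayed on their side of the threshold, 24 lost a call, 16 gained one and 1 reversed. The reversed value was Rc3h1 in CTL, 0.21 ± 0.08, on genes averaging at least 1 CPM with sex read from Xist and the 6 h CTL library 4.24 left out. Regulators called in the CKO response numbered 5 with only the groups compared, 6 in that combined setting and 5 with RLE factors without the library 4.24, against 3. With a library left out they numbered 4 to 6 in CTL and 3 to 4 in CKO, and 0 to 0 between genotypes and for the interaction. With the replicate block Zfp36l2 was called in CKO, and no other call of a regulator changed. The count of all genes called moved more. For CKO against CTL at 0 h (119) it was 421 with DESeq2, 198 without the sex term, 223 with sex from Xist, 290 with the replicate block, 220 with block and Xist, 200 with only the groups compared, 716 in the combined setting, 281 with RLE without 4.24, and 49 to 283 with a library left out: 65, 79, 60 and 71 without the 0 h CKO libraries 4.29, 5.6, 9.20 and 11.18, 49, 52 and 74 without the 0 h CTL libraries 4.29, 5.13 and 5.6, and 283 without the 6 h CTL library 4.24. At 6 h (82) it was 438 with DESeq2, 52 with the replicate block, 46 with block and Xist, 8 with only the groups compared, 228 and 124 in the 2 combined settings, and 16 to 212 with a library left out: 19, 16 and 182 without the CKO libraries 5.13, 5.6 and 11.18, and 38, 212, 46 and 51 without the CTL libraries 4.29, 5.13, 9.20 and 10.28. For the response it was 7653 (CTL) and 4956 (CKO) on genes averaging at least 1 CPM, where fewer genes are tested, 7553 (CTL) in the combined setting, and 15561 to 19210 (CTL) and 4848 to 12042 (CKO) with a library left out, with 5983 and 4848 in CKO without its 6 h libraries 5.13 and 11.18. DESeq2 called 10 genes for the interaction, which could not be fitted with only the groups compared. Of the genes called in the CTL response, not of all tested, 65.7% were higher, and 52.5% on genes averaging at least 1 CPM. In CKO these shares of the genes called were 59.9% and 47.6%. The causes of these shifts were not tested. The smallest group has 3 libraries, CKO at 6 h.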
